A study of Arabidopsis thaliana with 14 samples.

Results

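The genes described here are BODENLOS (BDL, also called IAA12, AT1G04550) and other members of the Aux/IAA family of auxin response repressors, followed through embryo development in Arabidopsis thaliana. They were chosen by locus, from a list of named family members: BDL, IAA13 (AT2G33310), IAA10 (AT1G04100), IAA18 (AT1G51950), IAA8 (AT2G22670), IAA9 (AT5G65670), IAA16 (AT3G04730), IAA17 (AT1G04250), IAA30 (AT3G62100) and IAA3 (AT1G04240). Of these 10 genes 9 were in the table of 25414 named genes, and all 9 passed the filter on low values (10 reads per 20000000 in 2 libraries). IAA3 was not analysed here. RNA came from whole embryos of the Col-0 ecotype at the zygote, octant, globular, heart, torpedo, bent and mature stages, with 2 biological replicates per stage and 14 libraries in all. All stages share the wild-type Col-0 background, with no treatment or mutation named in the labels. The labels do not say how many embryos were pooled for a library.

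Aux/IAA proteins bind auxin response factors (ARFs) and recruit TOPLESS corepressors, which keeps auxin-responsive genes off. Auxin joins an Aux/IAA protein to a receptor of the TIR1/AFB family, an F-box subunit of an SCF ubiquitin ligase, and the repressor is then degraded, which frees the ARF. In the embryo BDL is known as the repressor of MONOPTEROS (ARF5). A stabilising mutation in the degron of BDL blocks formation of the embryonic root.

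The degron is the short stretch that auxin and the receptor grip together, and its core is read as glycine, tryptophan, proline, proline. The core was found in every RefSeq protein model of 8 of the 9 measured genes and in neither of the 2 models of IAA30. Below are 39 coding bases around it, 5′ to 3′ on the coding strand, with the 4 core codons in capitals. They are shown because the degron is where these repressors meet the receptor, for BDL and its closest relative IAA13, for IAA8 and IAA9, which had the highest levels per length of the 9 up to the bent stage, and for IAA10, the most divergent. The sequences are from the reference genome, build TAIR10.1, at chr1:1241058-1241096 (plus strand) for BDL, chr2:14115224-14115262 (minus) for IAA13, chr2:9637725-9637763 (plus) for IAA8, chr5:26255104-26255142 (plus) for IAA9 and chr1:1060328-1060366 (plus) for IAA10. Each stretch lies in 1 exon.
BDL: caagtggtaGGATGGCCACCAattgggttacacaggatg
IAA13: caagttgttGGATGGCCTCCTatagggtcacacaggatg
IAA8: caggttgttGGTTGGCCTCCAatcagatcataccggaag
IAA9: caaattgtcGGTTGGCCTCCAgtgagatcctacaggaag
IAA10: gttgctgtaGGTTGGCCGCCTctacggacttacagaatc
BDL and IAA13 had 33 of 39 bases in common and IAA8 and IAA9 32 of 39. BDL and IAA10 had 22 of 39, and over all pairs of the 8 genes the count was 21 to 34.

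BDL and IAA13 also held the auxin response element variant TGTCGG before their transcription starts. The windows below, with the motif in capitals, lie at chr1:1240229-1240288 (plus) and chr2:14116157-14116216 (minus) of TAIR10.1, and the motif begins 38 bases before the annotated start of BDL and 100 before that of IAA13. They are shown because both hold the motif; aligned on it without gaps, they had 31 of the other 54 bases in common.
BDL: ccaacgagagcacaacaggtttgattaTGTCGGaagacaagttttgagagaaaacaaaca
IAA13: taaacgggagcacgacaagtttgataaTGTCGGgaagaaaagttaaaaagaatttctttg
In the 250 bases before the start, searched on both strands, TGTCGG was in 3 of the 9 genes (BDL, IAA13 and IAA16) and in 4.16% of 27443 promoters of the annotation. The canonical element TGTCTC was in 2 of the 9 (IAA8 and IAA30) and in 10.9% of promoters. Either was in 5 of the 9 genes and in 14.7% of promoters. Each of these 5 genes had 1 match, so no matches overlapped, and a match is a description of letters, not of binding.

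Values are normalised read counts, which the authors scaled to 20000000 reads per library, and below they are given as replicate 1, then replicate 2. The libraries held 6078186 to 30803336 reads, so that 1 read is worth 0.649 to 3.29 on this scale, and the correlation between the replicates of a stage was 0.949 to 0.980 across genes. Of the embryo markers all 10 were measured, with summed values of 3351 to 127495. WOX8 was at 0 in the bent and mature libraries. Of the seed coat markers 4 of 10 were measured, and their sum was 15057 and 15916 at octant against 4341 and 2782 at zygote, 388 and 303 at globular and 4.69 and 4.89 at mature. Of the endosperm markers 9 of 10 were measured, with sums of 16.6 to 507. Octant values below therefore stand beside a high seed coat marker sum, and zygote values beside one above those of all stages from globular on. The part of seed coat RNA in the octant and zygote values, and in comparisons with them, was not tested.

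**Figure D1:**
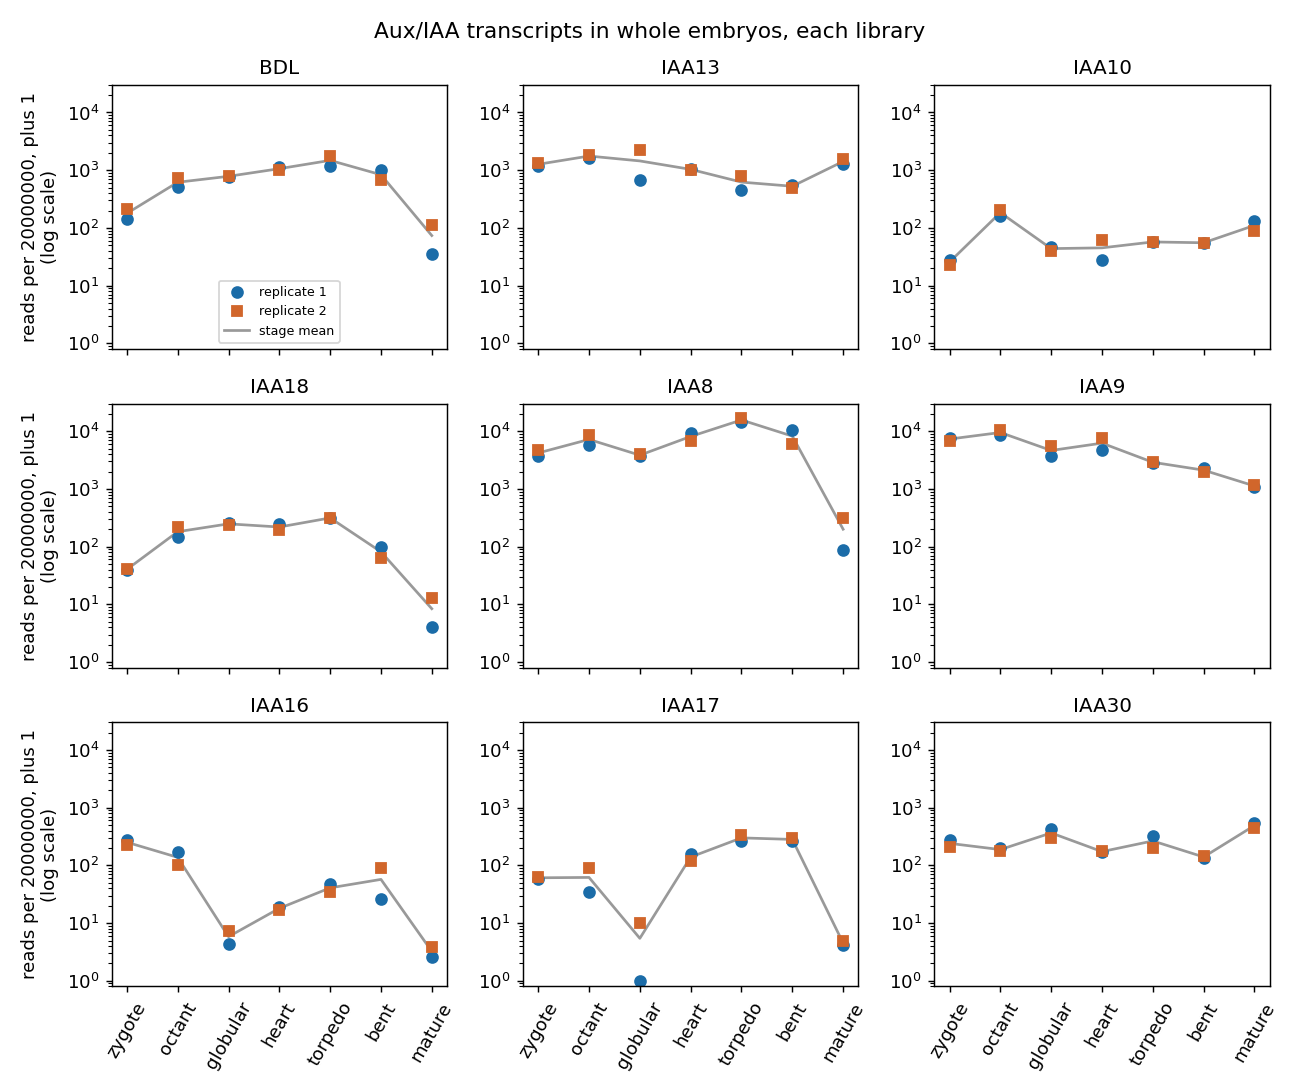
Level of each of the 9 Aux/IAA transcripts in every library. Horizontal axis, stage in developmental order; vertical axis, reads per 20000000 plus 1 on a log scale; circles are replicate 1, squares replicate 2 and the line joins stage means. BDL, IAA18, IAA8 and IAA17 have their highest mean at torpedo and their lowest at mature, while IAA30 has its highest at mature.

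BDL, the MONOPTEROS repressor, had values of 144 and 211 at zygote, 513 and 721 at octant, 773 and 792 at globular, 1113 and 1009 at heart, 1200.4 and 1755 at torpedo, 1002 and 665 at bent, then 34.4 and 111 at mature. On the authors' scaling the stage means climbed up to torpedo and dropped off at maturity, with the torpedo mean 20.4 times the mature mean. In the order of the means, torpedo, heart, bent, globular, octant, zygote, mature, the bent and globular libraries overlapped and all other neighbours stood apart. BDL rose by 1.78 ± 0.46 (log2, SE) at octant against zygote (limma, Benjamini-Hochberg adjusted p = 0.00434). With median centring, quantile normalization, edgeR and DESeq2 in turn that change was 0.64, 0.89, 0.83 and 0.57, and the call was lost under all 4. None of the next 4 consecutive steps passed the test, though with median centring globular against octant did, at 1.15 (adjusted p = 0.0362). The rise of 0.44 at heart against globular turned to -0.39, -0.07, -0.19 and -0.29 under the same 4 alternatives in turn, with no call. BDL fell by 3.63 ± 0.46 (log2, SE) at mature against bent (adjusted p = 9.25e-06), a change of -2.25 with median centring and called in all alternatives. In whole-embryo RNA a lower value cannot tell fewer expressing cells from less RNA per cell.

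IAA13, the gene closest to BDL in sequence, which can also act with ARF5, had another course. Its values were 1185 and 1343 at zygote, 1649 and 1867 at octant, 671 and 2221 at globular, 1048 and 1017 at heart, 453 and 788 at torpedo, 559.6 and 492 at bent, then 1303 and 1532 at mature. The span of means was 3.34 times, and 4 of the 6 neighbouring stages in the order overlapped. The globular replicates differed most. IAA13 rose at mature, with 1303 and 1532 against 559.6 and 492 at bent, a log2 change of 1.42 ± 0.46 (SE; limma, adjusted p = 0.0151). That call was lost without bent replicate 2 (adjusted p = 0.0661) or mature replicate 2 (adjusted p = 0.0741), and the change was 1.24 to 2.80 over the alternatives. IAA13 overlaps AT2G33300 and shares 33.2% of its 50-base words, read on either strand, with other genes. The IAA13 reads may therefore be split or left out by counting without strand. AT2G33300 itself had values of 0 to 6.58.

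IAA10 and IAA18 are less studied repressors, and IAA18 is known from a stabilising mutation that disturbs the apical embryo and root formation. IAA10 had 27.2 and 22.1 at zygote, 161 and 205 at octant, 46.1 and 39.5 at globular, 27.2 and 61.1 at heart, 55.8 and 56.5 at torpedo, 53.9 and 54.7 at bent, then 133 and 86.1 at mature. Both octant libraries lay above all others, and both mature libraries above all but octant. It rose at octant against zygote by 2.70 ± 0.46 (log2, SE; limma, adjusted p = 1.97e-04), and at globular against octant it fell by 1.99 ± 0.46 (adjusted p = 0.00343). Over the alternatives these changes were 1.56 to 2.87 and -2.16 to -1.20. Of its 50-base words 22.8% occur in another gene, AT1G04105 overlapping it. IAA18 had 38.8 and 39.8 at zygote, 145 and 216 at octant, 259.9 and 235 at globular, 242 and 194 at heart, 318 and 309.7 at torpedo, 97.8 and 63.0 at bent, then 3.13 and 11.7 at mature. IAA18 was thus high at the middle stages, and its course was close to that of BDL. It rose at octant against zygote by 2.07 ± 0.46 (adjusted p = 0.00137). It fell at bent against torpedo by 1.95 ± 0.46 (adjusted p = 0.00585; 0.0597 without bent replicate 2), and at mature against bent by 2.96 ± 0.46 (adjusted p = 5.30e-05). Over the alternatives the octant change was 0.93 to 2.35 and the mature change -3.53 to -1.35. The mature IAA18 values rest on 14 reads against 125 at bent, a ratio of 0.101 with a 95% exact counting interval of 0.0535 to 0.175, which covers counting error only.

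IAA8 and IAA9 are close relatives with long amino-terminal parts and wide expression in the plant. IAA8 had 3726 and 4668 at zygote, 5765 and 8650.4 at octant, 3708 and 3977 at globular, 9374 and 6844 at heart, 14481 and 16857 at torpedo, 10412 and 6037 at bent, then 86.0 and 313 at mature. The torpedo mean was 78.5 times the mature mean. Up to the bent stage no consecutive change of IAA8 passed the test, and at mature against bent it fell by 5.55 ± 0.50 (log2, SE; limma, adjusted p = 4.19e-07), with all alternatives calling the fall. IAA9 had 7776 and 6852 at zygote, 8514 and 10488 at octant, 3689 and 5592 at globular, 4661 and 7775 at heart, 2860.1 and 2932 at torpedo, 2290.1 and 1939 at bent, then 1064 and 1187 at mature. Its highest mean, at octant, was 8.44 times the lowest, at mature. IAA9 fell by 2.70 ± 0.36 at mature against zygote (adjusted p = 1.08e-05), while the single steps were smaller: it fell by 1.06 ± 0.36 at globular against octant, by 1.05 ± 0.36 at torpedo against heart and by 0.90 ± 0.36 at mature against bent (adjusted p = 0.0315, 0.0442 and 0.0428). Each of these single-step calls was lost in several alternatives, in 6, 8 and 13 of the 25, with adjusted p up to 0.618, 0.298 and 0.860. The changes reached as little as -0.26 at globular and -0.69 at torpedo. In the last of them the sign turned to 0.48 when libraries were centred on their medians.

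IAA16 and IAA17 (AXR3) belong to the group of classical auxin-inducible repressors, and stabilised AXR3 disturbs root gravitropism. IAA16 had 278 and 224 at zygote, 173 and 101 at octant, 3.29 and 6.36 at globular, 18.1 and 16 at heart, 45.9 and 33.8 at torpedo, 24.7 and 87.8 at bent, then 1.56 and 2.93 at mature. It fell by 3.97 ± 0.54 (log2, SE) at globular against octant (limma, adjusted p = 5.75e-05), on 6 reads against 268, a ratio of 0.0357 (95% exact counting interval 0.0130 to 0.0787). At mature against bent it fell by 3.05 ± 0.54 (adjusted p = 2.04e-04), on 4 reads against 75, a ratio of 0.0479 (0.0127 to 0.128). IAA17 had 58.2 and 61.9 at zygote, 34.0 and 87.8 at octant, 0 and 8.91 at globular, 157 and 120.1 at heart, 269 and 329 at torpedo, 262 and 300.0 at bent, then 3.13 and 3.91 at mature. So both genes were near the floor at the globular and mature stages, and IAA17 was highest between heart and bent. IAA17 fell at globular against octant by 3.04 ± 0.56 (adjusted p = 6.79e-04), on 7 reads against 83, a ratio of 0.134 (0.0524 to 0.289). It rose at heart against globular by 4.30 ± 0.56 (adjusted p = 9.62e-05), on 224 reads against 7, a ratio of 21.0 (10 to 52.8). At mature against bent it fell by 5.24 ± 0.56 (adjusted p = 1.90e-06), on 6 reads against 414, a ratio of 0.0130 (0.00475 to 0.0286). With so few reads the log2 changes depend on the 4 added before the logarithm: with 16 added IAA17 had -1.85 at globular against octant and IAA16 -1.83 at mature against bent, both still called. The globular libraries were unequal in depth, 6078186 and 15715299 reads.

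IAA30 is one of the non-canonical Aux/IAA genes that lack the degron core. Its values were 272 and 208 at zygote, 198 and 176 at octant, 431 and 298 at globular, 171 and 174 at heart, 328 and 201 at torpedo, 131 and 147 at bent, then 538 and 443 at mature. The mature libraries were above all others, and the whole span of means was 3.52 times. IAA30 rose at mature against bent by 1.78 ± 0.37 (log2, SE; limma, adjusted p = 7.79e-04), a call made in all alternatives, with changes of 1.60 to 3.16. It fell by 1.04 ± 0.37 at heart against globular (adjusted p = 0.0429), a call lost in 8 of 25 alternatives, with adjusted p up to 0.209 and changes of -1.86 to -0.77.

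**Figure D2:**
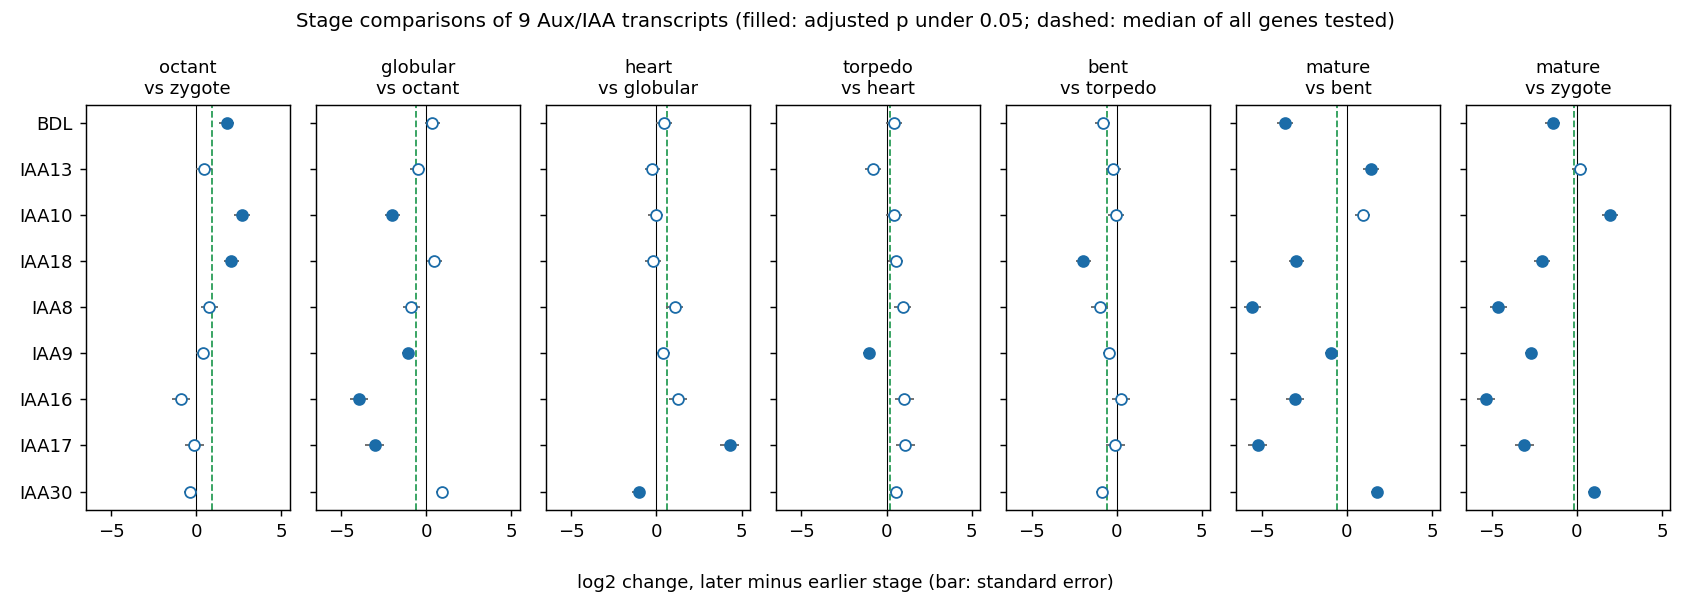
Log2 change of each Aux/IAA transcript in the 7 stage comparisons, later minus earlier stage. Each panel is 1 comparison; points are the changes on the log2(value + 4) scale, bars are standard errors, filled points passed an adjusted p of 0.05, and the dashed line is the median of all 18744 genes tested. At mature against bent 6 of 9 are filled to the left of 0 and 2 to the right; with median-centred values that split is 5 and 3.

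Every one of the 9 genes differed among stages by the F test, as did 97.1% of all genes tested, so this count says little about them. At octant against zygote 3 of 9 rose (BDL, IAA10 and IAA18) and none fell, while 44.7% of all genes rose and 13.1% fell, and the median log2 change was 0.47 for the 9 genes and 0.92 for all genes. This step depended on scaling: the split was 1 up and 2 down with median-centred values, 1 and 3 with quantile normalization, 2 and 2 with edgeR and 1 and 3 with DESeq2. The BDL call was lost under all 4 (adjusted p = 0.192, 0.0623, 0.132 and 0.286) and without zygote replicate 1 (adjusted p = 0.0510), and that of IAA18 under median centring, quantile normalization and DESeq2 (adjusted p = 0.0648, 0.0599 and 0.0679). The IAA10 call was made under each of the 25 alternatives.

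At globular against octant 4 of 9 fell (IAA10, IAA9, IAA16 and IAA17) and none rose, against 31.5% of all genes that fell and 7.02% that rose. The median was -0.88 for the 9 genes and -0.63 for all. The split here also moved with scaling, to 3 up and 2 down with median-centred values, 2 and 3 with quantile normalization, 1 and 3 with edgeR and 2 and 3 with DESeq2. IAA30, at 431 and 298 against 198 and 176, missed the threshold (adjusted p = 0.0620) and passed it as higher under those 4. The falls of IAA16 and IAA17 were called throughout, and that of IAA10 was lost under median centring and quantile normalization (adjusted p = 0.0635 and 0.0568).

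At the 3 steps from globular to bent 2, 1 and 1 of the 9 genes passed the test, beside 34.5%, 25.4% and 27.5% of all genes. A change that did not pass is not shown to be absent: IAA8 means were 3843, 8109, 15669 and 8225 from globular to bent. At heart against globular 1 rose (IAA17) and 1 fell (IAA30), beside 27.7% of all genes up and 6.90% down; DESeq2 called 1 up and 2 down. At torpedo against heart IAA9 alone fell and none rose, beside 9.17% of all genes down and 16.3% up. At bent against torpedo IAA18 alone fell and none rose, beside 22.0% down and 5.46% up. In these 3 comparisons the medians of the 9 genes were 0.41, 0.53 and -0.46, and those of all genes 0.59, 0.19 and -0.54.

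At entry into the mature stage 8 of the 9 passed the test, beside 58.4% of all genes. At mature against bent 6 fell (BDL, IAA18, IAA8, IAA9, IAA16 and IAA17) and 2 rose (IAA13 and IAA30), while 40.1% of all genes fell and 18.2% rose. The median was -2.96 for the 9 genes and -0.57 for all genes. For each of the 9 the mature libraries did not overlap the bent libraries. Such a gap is weak evidence with 2 libraries per stage: at torpedo against heart 8 of the 9 stood apart and 1 was called. The share of all genes without overlap was not computed. The split was 3 up and 5 down with median-centred values, edgeR or DESeq2 and 3 and 6 with quantile normalization. Under each of these 4 IAA10, at 133 and 86.1 against 53.9 and 54.7, passed as higher. Its adjusted p was 0.0971 in the main test. Of the 10 embryo markers 7 fell and 1 rose at this step, 4 and 3 with median centring, and their summed values were 3351 and 4332 at mature against 38954 and 63911 at bent. The bent sums were mostly PDF1, an epidermal gene, with 402 and 807 at mature against 27243 and 56998 at bent, and WOX2 had 153 and 208 against 0 and 1.66. The part of these markers in the Aux/IAA changes was not tested.

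From end to end, at mature against zygote, 6 of 9 were lower and 2 higher, beside 35.6% of all genes lower and 29.6% higher. The falls were those of BDL, IAA18, IAA8, IAA9, IAA16 and IAA17, and the median was -2.03 for the 9 genes against -0.16 for all. BDL fell by 1.43 ± 0.46 (log2, SE; limma, adjusted p = 0.0134), a call lost without zygote replicate 2 (adjusted p = 0.106) or mature replicate 1 (adjusted p = 0.222, a change of -0.64). IAA8 fell by 4.63 ± 0.50 (adjusted p = 1.23e-06) and IAA16 fell by 5.35 ± 0.54 (adjusted p = 6.53e-07), with IAA16 on 4 reads against 439, a ratio of 0.00938 (95% exact counting interval 0.00254 to 0.0242). IAA10 rose by 1.96 ± 0.46 (adjusted p = 0.00157). IAA30 rose by 1.03 ± 0.37 (adjusted p = 0.0247), a call lost with equal totals over named genes and with quantile normalization (adjusted p = 0.0571 and 0.0625) and without zygote replicate 2 or mature replicate 1 (adjusted p = 0.137 and 0.110). With equal totals the split was 1 up and 6 down, as with quantile normalization. IAA13 stood at 1303 and 1532 against 1185 and 1343.

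**Figure D3:**
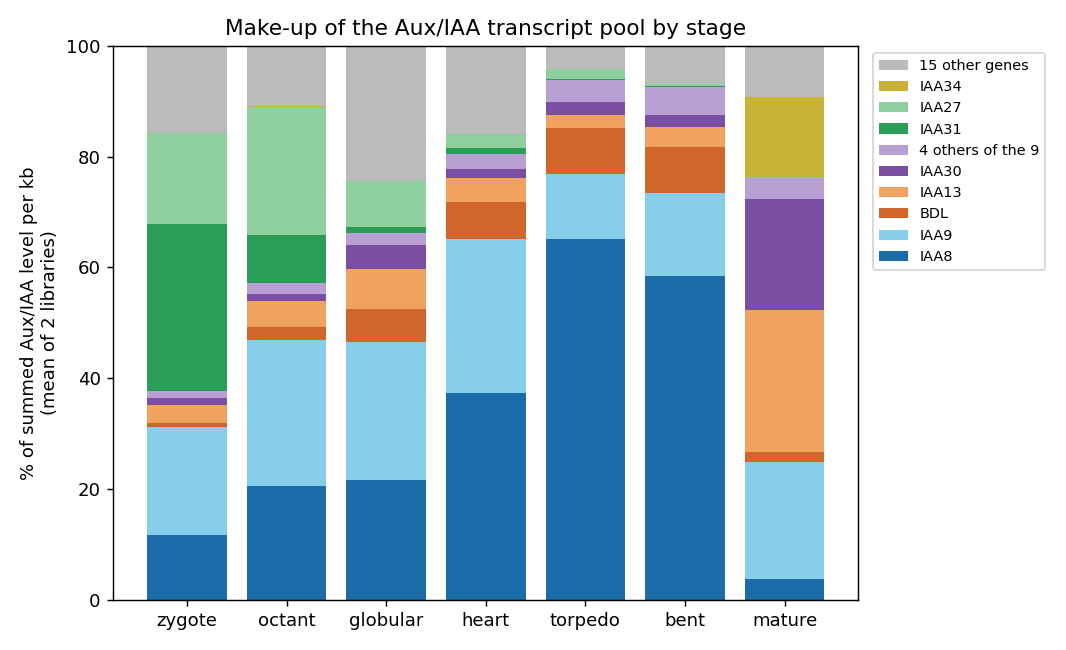
Make-up of the summed Aux/IAA level per kb of exon at each stage, mean of 2 libraries. Bars are stacked shares in percent that add to 100; the 4 others of the 9 are IAA10, IAA16, IAA17 and IAA18. IAA8 and IAA9 together hold 76.9% at torpedo and 24.9% at mature, where IAA13, IAA30 and IAA34 take 25.6%, 20.1% and 14.6%.

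To compare genes with each other, values were divided by exonic length, which is rough for amplified RNA since coverage along a transcript may be uneven. Over the 27 Aux/IAA genes in the table the summed level per kb was 17531 ± 624 at zygote, 16849 ± 1392 at octant, 8647 ± 1118 at globular, 10525 ± 439 at heart, 11665 ± 1139.6 at torpedo, 6726 ± 1809.8 at bent and 2497 ± 320.3 at mature (SD, n = 2 each). Of that sum the 9 genes held 37.7% at zygote, 57.2% at octant, 66.2% at globular, 80.4% at heart, 93.9% at torpedo, 92.6% at bent and 76.1% at mature. IAA8 and IAA9 together held 31.2% ± 1.21 at zygote, 76.9% ± 0.309 at torpedo and 24.9% ± 1.56 at mature (SD, n = 2). BDL held 0.675% at zygote, 8.33% at torpedo and 1.85% at mature. On the authors' scaling the pool was smaller at maturity, and led by IAA13 with 25.6%, IAA9 with 21.1% and IAA30 with 20.1%. The summed levels, unlike the shares, depend on how libraries are scaled to each other. With median centring the median log2 change of all genes moved from -0.57 to 0.81 at mature against bent. At globular against octant it moved from -0.63 to 0.16. Whether the falls in the summed level at these steps hold under other scalings was not tested.

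The zygote and mature pools also shared a feature of sequence. Aux/IAA genes whose protein models lack the degron core, 6 in the table (IAA30, IAA20, IAA31, IAA32, IAA33 and IAA34), summed to 36.0% and 27.3% of the per-kb level at zygote, 12.4% and 7.23% at octant, 16.5% and 10.1% at globular, 5.53% and 4.50% at heart, 5.03% and 2.77% at torpedo, 3.70% and 4.35% at bent, then 35.3% and 35.8% at mature. Both ends of the series lay above every library between them. Different genes made up these shares. At zygote it was mostly IAA31, with 34.4% and 26.0%, and at mature IAA30, with 23.8% and 16.4%, and IAA34, with 10.7% and 18.5%. This grouping was made after the values were seen, and no test was run on it.

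**Figure D4:**
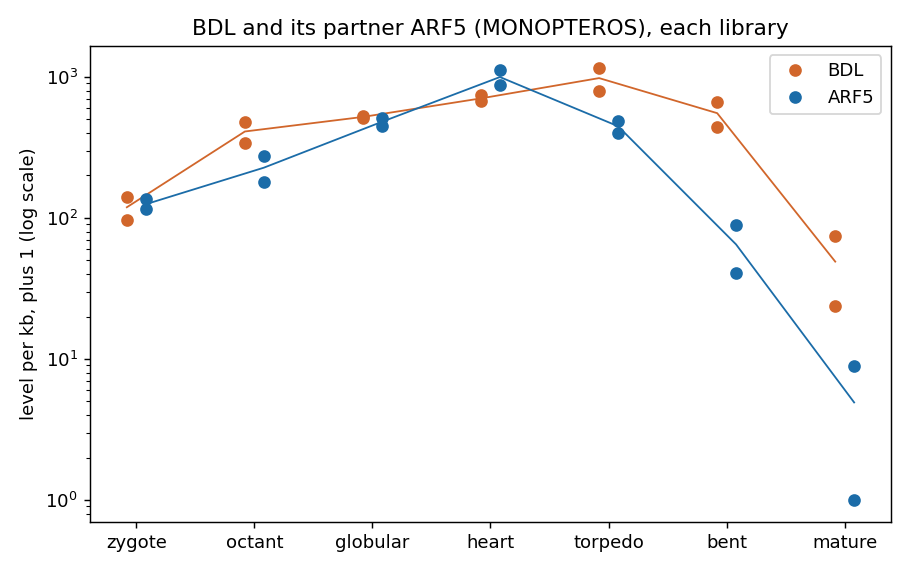
Level of BDL and ARF5 (MONOPTEROS) in each library, per kb of exon plus 1, on a log scale, by stage in developmental order. Points are libraries and lines join stage means. ARF5 has its highest mean at heart and BDL at torpedo, and at bent both BDL libraries lie above both ARF5 libraries.

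ARF5, the activator that BDL holds back, had 413 and 487 at zygote, 650.0 and 986 at octant, 1619 and 1844 at globular, 4037 and 3166 at heart, 1453 and 1769 at torpedo, 319 and 143 at bent, then 0 and 28.4 at mature. ARF5 thus had its highest mean at heart, 1 stage before BDL, but the steps that set these peaks apart did not pass the test. BDL changed by 0.45 ± 0.46 at torpedo against heart (log2, SE, limma, adjusted p = 0.514). ARF5 changed by 1.05 ± 0.68 at heart against globular and by -1.15 ± 0.68 at torpedo against heart (adjusted p = 0.252 and 0.235), the latter called in 3 of 25 alternatives. It fell by 2.89 ± 0.68 at bent against torpedo (log2, SE; limma, adjusted p = 0.00610, a call lost with a pseudocount of 1 and without bent replicate 2, adjusted p = 0.0816) and fell by 4.26 ± 0.68 at mature against bent (adjusted p = 7.53e-05). Per kb, the ratio of BDL to ARF5 was 0.838 and 1.04 at zygote, 1.89 and 1.75 at octant, 1.14 and 1.03 at globular, 0.660 and 0.763 at heart, 1.98 and 2.38 at torpedo, and 7.52 and 11.2 at bent. At mature replicate 2 gave 9.33, and replicate 1, with 0 ARF5 reads, gave none. The heart libraries had the lowest ratios and the bent libraries stood above all earlier ones. ARF5 overlaps AT1G19860, so its reads carry the same reserve about counting as those of IAA13.

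Other genes of the pathway were counted from lists. Among the other Aux/IAA genes, 15 of 19 tested, 2 rose and 7 fell at mature against bent, where 18.2% of all genes rose and 40.1% fell, with a median of -1.53 beside -0.57 for all genes; the split was 3 and 4 with median centring, 3 and 6 with quantile normalization and 1 and 5 with DESeq2. IAA34, a non-canonical member, had 246 and 513 at mature against 0 and 1.66 at bent, 681 reads against 1, a ratio of 612 with a 95% exact counting interval of 109 to 24213 (limma, adjusted p = 7.00e-07; DESeq2, adjusted p = 0.133). IAA7, a relative of IAA17, fell, with 1.56 and 0.978 against 24.7 and 77.9 (adjusted p = 9.21e-05). Of the auxin receptors 5 of 6 were tested, and 4 fell at bent against torpedo while none rose, beside 22.0% of all genes down and 5.46% up. AFB3 had 393 and 106 at bent against 748 and 567 at torpedo (adjusted p = 0.0243), and AFB5, which also senses the herbicide picloram, 628 and 389 against 1404 and 1359 (adjusted p = 0.0380). The receptors' median change there was -1.22, beside -0.54 for all genes. These calls depended on scaling, with 2 falls under equal totals and 0 under median centring, quantile normalization, edgeR or DESeq2, where the highest adjusted p of the alternatives was 0.342 for AFB3 and 0.349 for AFB5.

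Of the SCF ligase genes and its regulators 5 of 8 were tested, and at mature against bent 2 rose and 2 fell, beside 18.2% of all genes up and 40.1% down, with a median of -0.36 against -0.57 for all genes. With edgeR or DESeq2 2 rose and 0 fell, at a median of 0.46 against -0.01 and 0.00 for all genes, and with median centring 3 rose and 0 fell, at a median of 1.02 against 0.81. ASK2, an SKP1-type subunit, had 7563 and 8187 against 2131 and 1835 (limma, adjusted p = 4.57e-04). CAND1, which exchanges F-box subunits, had 318 and 296 against 928 and 688 (adjusted p = 0.00598, and up to 0.979 in the alternatives). Of the TOPLESS corepressors TPR4 was analysed here, and it rose at octant, with 152 and 185 against 20.4 and 26.5 at zygote (adjusted p = 6.85e-05). Of the 5 activating ARFs 4 fell at mature against bent and none rose, beside the same shares of all genes, with a median of -3.02 beside -0.57 for all genes; with median centring, edgeR or DESeq2 4 fell and 1 rose, and with quantile normalization 3 fell and 1 rose. ARF6, which promotes flower maturation, had 40.7 and 37.2 at mature against 1089 and 684 at bent (adjusted p = 8.06e-07).

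Targets of MONOPTEROS, 7 of 8 tested, fell in 5 cases at bent against torpedo and in 6 at mature against bent, with none rising in either, where 22.0% and 40.1% of all genes fell. Their medians were -1.20 and -2.07, beside -0.54 and -0.57 for all genes. The falls numbered 1 at the earlier step with median centring, quantile normalization, edgeR or DESeq2, and 3 or 4 at the later one. The vascular regulator TMO5 had 3.13 and 12.7 at mature against 371 and 293 at bent (limma, adjusted p = 1.75e-06). Of the auxin conjugation and early response genes 9 of 10 were tested, and 7 fell at bent against torpedo with none rising, at a median of -1.71 beside -0.54 and 22.0% falling for all genes. With median centring, quantile normalization, edgeR or DESeq2 4 fell, and with equal totals or the replicate block 5. At heart against globular 5 of these genes rose and 1 fell, at a median of 2.68 beside 0.59 for all genes. Of all genes 27.7% rose and 6.90% fell at that step. Under each of the settings just named 5 rose, and 1 fell except with DESeq2, where 0 fell. GH3.2, which conjugates auxin to amino acids, had 185 and 79.5 at bent against 1420.2 and 929 at torpedo (adjusted p = 8.80e-05), and LBD18, an ARF target in lateral roots, 18.0 and 3.31 against 200.1 and 81.2 (adjusted p = 0.00143).

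Across the 14 libraries, which share stages and replicates and so are not independent points, the log2 levels of BDL and IAA18 had a Pearson correlation of 0.94, BDL and IAA8 one of 0.90, and IAA18 and IAA8 one of 0.87. These were the 3 of 36 pairs above 0.8, and 17 pairs were below 0. BDL and its relative IAA13 had -0.40. The lowest was that of IAA30 and IAA17, -0.80. Among 15174 other genes with a mean of 100 or more in their highest stage, the courses most like that of BDL were those of MAP65-2 (AT4G26760, a microtubule bundling protein, 0.990), AT4G11100 (0.989), UPP (AT3G53900, uracil salvage, 0.987), AT3G22480 (0.985) and AT1G44000 (0.985). MAP65-2 averaged 61.4 at zygote, 2277 at torpedo and 16.6 at mature. For IAA18 the gene most alike was CDC20.2 (AT4G33260, an activator of the anaphase-promoting complex, 0.988), for IAA8 HESO1 (AT2G39740, which uridylates small RNAs, 0.990), and for IAA9 DELTA-VPE (AT3G20210, a vacuolar processing enzyme known from the seed coat, 0.981). For IAA16 it was GDU1 (AT4G31730, 0.983), for IAA17 AT1G27660 (0.955), for IAA10 AT2G25760 (0.938), for IAA30 SAP7 (AT4G12040, 0.893) and for IAA13 AT3G01310 (0.852). These are likenesses of course over 14 libraries, given with no test.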

How the data were processed

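Per the labels' protocols, total RNA of whole embryos was amplified with the MessageAmp aRNA kit and sequenced from TruSeq RNA libraries, which keep no strand. Named in the submitters' processing notes, without roles or versions, are the build TAIR10 and the tools STAR, HTSeq, Trimmomatic, FastQC, CASAVA and DESeq2. The authors deposited a normalised signal per gene, per the file headers in reads per 20000000. Each column summed to 20000000 and 100% of values were whole reads within 0.001, so reads were recovered. Entries without a gene identifier, 103 of 25517, held 9.15% to 26.3% of reads and were left out of all tests.

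The 18744 genes that reached 10 in 2 libraries or more entered the test, and 6670 did not. They were fitted as log2(value + 4) with limma 3.58.1 in R 4.3.3, with only stage in the model, all 14 libraries and limma's variance trend, with 7 residual and 7.81 prior degrees of freedom. The 6 consecutive comparisons, mature against zygote and an F test were adjusted after Benjamini and Hochberg over all genes at 0.05. Changes are later minus earlier stage. Since the deposited values are not raw counts, edgeR 4.0.16 (quasi-likelihood) and DESeq2 1.42.0 served as alternatives on the recovered reads. The 25 alternatives were those 2 tools, 4 other scalings or weightings (named genes scaled to equal totals, median centring, quantile normalization, array weights), a block on the replicate number, a pseudocount of 1 or 16, a filter at 50 or none, and each library left out in turn. The fits were also run on simulated data, with the same dispersion for all genes and equal numbers of genes raised and lowered. That run therefore cannot judge the calls that depend on scaling. The p-values rest on 1 spread per gene, pooled over the 7 stages and drawn toward a trend over all genes tested. It is a spread between replicates that the labels call biological, and not that of the compared stages alone.

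Each of the 9 Aux/IAA genes is named with all its values. Other genes are named by rule: the 2 largest changes of a list in the consecutive comparison with most calls, ARF5, and the genes most alike by Pearson correlation, 5 for BDL and 1 for each other gene. One gene that this rule names is not reported here. The genes and lists were chosen with earlier results of these data known. Overlap, lengths and sequences came from the annotation of TAIR10.1, a RefSeq build whose protein models gave the degron core. Counting intervals are 95% exact intervals on the reads of both libraries of a stage.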

Additional observations from a re-analysis of the deposited data

How the results depend on the processing

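Of the 63 changes of the 9 genes, 27 passed the test, and 16 of these passed under all 25 alternatives. Of the 36 others, 24 passed under none. The replicate block left every count as it was (3, 4, 2, 1, 1, 8 and 8 genes in the 7 comparisons and 9 in the F test) and changed no call. Whether same-numbered libraries of different stages belong together is not known. Their deviations correlated at -0.111 to 0.299 over 21 stage pairs, with 3 above 0.1. These were globular with torpedo (0.299), globular with bent (0.162) and torpedo with bent (0.103). A batch shared by those libraries was not tested. The count at heart against globular was 1 with array weights and 1 to 3 with a library left out. At torpedo against heart it was 0 with no filter and 0 to 1 with a library left out, and at bent against torpedo it was 0 to 1 with a library left out, 0 without bent replicate 2. The sign of 17 changes turned in 51 fits, and in 2 of these the change passed the test in 1 of the 2 fits: IAA9 at octant against zygote was -0.86 with DESeq2, and IAA9 at mature against bent was 0.48 with median centring. The causes of these turns were not tested. Depth limits IAA16, IAA17 and IAA18 at the stages with few reads.

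In log2 units, with median centring, edgeR and DESeq2 in turn, the octant against zygote changes were -0.67, -0.49 and -0.74 for IAA13, -0.38, -0.20 and -0.45 for IAA8 and -0.77, -0.61 and -0.86 for IAA9. At globular against octant IAA13 had 0.27, 0.31 and 0.35, and at heart against globular IAA9 had -0.42, -0.22 and -0.32. With median centring, quantile normalization, edgeR and DESeq2 in turn, BDL had -0.39, -0.07, -0.19 and -0.29 at heart against globular. At bent against torpedo IAA13 had 0.46, 0.47, 0.39 and 0.44, IAA10 0.60, 0.53, 0.59 and 0.64, IAA9 0.19, 0.07, 0.18 and 0.23, and IAA17 0.56, 0.65, 0.56 and 0.61. At torpedo against heart IAA10 had -0.03 with median centring and -0.08 with quantile normalization. With equal totals IAA10 had 0.11 and IAA17 0.08 at bent against torpedo, and IAA13 had -0.03 at mature against zygote. With a library left out the ranges were -0.75 to 0.52 for IAA17 at octant against zygote, -1.38 to 0.34 for IAA13 at globular against octant, and -1.10 to 0.62 for IAA13 and -0.58 to 0.48 for IAA10 at heart against globular. They were -0.11 to 0.95 for IAA10 at torpedo against heart. At bent against torpedo they were -0.58 to 0.21 for IAA13, -0.60 to 1.08 for IAA16 and -0.23 to 0.06 for IAA17. A stage left with 1 library was taken to vary like the other stages.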
